A study of Mus musculus with 9 samples.

Results

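Tetrahydrobiopterin (BH4) is the cofactor of the aromatic amino acid hydroxylases, which start the synthesis of catecholamines and serotonin, of the nitric oxide synthases and of an ether lipid-cleaving enzyme. The genes described here are 6 that encode enzymes of its synthesis and recycling and a regulator of its synthesis: Gch1, Gchfr, Pts, Spr, Qdpr and Pcbd1. Their probes were found by gene name or RefSeq identifier on every array, and all 8 such probes of the 41174 on the array are reported, with none left out. Gch1 and Pts have 2 probes each and the other 4 genes have 1.

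RNA came from the L3/L4 dorsal root ganglia (DRG) of adult mice, the ganglia that hold the cell bodies of sensory neurons projecting into the sciatic nerve. The injured group holds 5 samples taken 3 days after sciatic nerve transection, and the uninjured group holds 4 samples without a lesion. The results text of the study gives 24 hr for the arrays where the labels and the methods give 3 days. It also names L4 ganglia where the methods name L3/L4. All 9 samples carry the labels cre.neg and jun.wt, so both groups were without Cre recombinase and wild-type for Jun, and the labels give no exact age, sex or strain. The labels do not say which samples came from separate animals, whether ganglia were pooled, or whether uninjured ganglia were contralateral to a lesion, so p-values here measure the spread between samples, which may in part be technical. Each sample was labelled with Cy5 and hybridised against a universal mouse reference RNA labelled with Cy3, with no dye swap, on a 60-base oligonucleotide array.

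BH4 is made from GTP in successive steps. GTP cyclohydrolase (Gch1) catalyses the committed and usually rate-limiting step, pyruvoyl-tetrahydropterin synthase (Pts) the next, and sepiapterin reductase (Spr) the last, while GTP cyclohydrolase feedback regulatory protein (Gchfr) binds the cyclohydrolase and lets BH4 inhibit it. When a hydroxylase uses BH4, the oxidised cofactor is restored by pterin carbinolamine dehydratase (Pcbd1) and quinoid dihydropteridine reductase (Qdpr). In sensory ganglia the pathway is known for its part in pain after nerve injury.

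The promoters of Gch1, whose probes rose after injury, and of Gchfr, whose probe did not pass the test, are shown because the pair encode an enzyme and its regulator. The sequences are those of RefSeq on GRCm38.p6, 300 bases each, from 250 bases before the annotated start to 50 bases after it, printed in the direction of transcription. Capitals mark matches to TGACG, the core letters of a cAMP response element, and to CCAAT, each searched on both strands.

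Gch1, chr14:47189364-47189663, minus strand: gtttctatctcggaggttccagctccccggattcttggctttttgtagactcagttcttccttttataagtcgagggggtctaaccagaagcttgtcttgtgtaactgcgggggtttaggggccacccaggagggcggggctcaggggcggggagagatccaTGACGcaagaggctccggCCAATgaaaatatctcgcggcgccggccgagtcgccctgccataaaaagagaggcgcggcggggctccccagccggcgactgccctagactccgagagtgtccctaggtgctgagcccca
Gchfr, chr2:119167538-119167837, plus strand: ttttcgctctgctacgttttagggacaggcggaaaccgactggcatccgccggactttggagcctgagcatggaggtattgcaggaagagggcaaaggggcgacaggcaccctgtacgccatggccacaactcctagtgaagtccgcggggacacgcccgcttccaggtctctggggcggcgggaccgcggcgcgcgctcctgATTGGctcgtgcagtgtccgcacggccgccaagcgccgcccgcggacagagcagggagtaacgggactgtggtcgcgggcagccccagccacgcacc

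In the Gch1 promoter TGACG begins 88 bases and CCAAT 70 bases before the start. The Gchfr promoter holds CCAAT on the other strand, printed as ATTGG, 47 bases before the start, and no TGACG. Among the 6 promoters TGACG was found in that of Gch1 alone, and CCAAT in those of Gch1, Gchfr and Qdpr. Of all 32851 promoters in the same table, 20.8% hold TGACG and 37.4% hold CCAAT. The longer searches TGACGTCA (in 1.79% of all promoters), TGANTCA (7.81%) and TGATGNAA (3.97%) had no match in any of the 6 windows. TGACGTCA contains TGACG, so these searches overlap. These matches describe letters in the windows and no binding was measured here.

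All 8 probes were well above background in the Cy5 channel on all 9 arrays, so each entered the test with a value from every sample. Values below are log2 ratios of DRG over reference after background correction and normalization within each array, and a difference of 1 on this scale is a 2-fold change. Each probe has its own ratio to the reference, so levels are compared between samples for 1 probe and not between probes. In bulk ganglia a change in the number of cells of a type and a change in RNA per cell cannot be told apart.

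Over the whole array, 3276 of the 31186 probes tested rose (10.5%) and 4063 fell (13.0%) after injury at an adjusted p under 0.05 in limma, together 23.5%. Median Cy5 spot signals ran from 156 to 238 across arrays, and 71.0% to 78.9% of spots were well above background in Cy5. The 5 genes taken as a check of the lesion all rose, with Atf3 at a log2 fold change of 5.14 ± 0.07 (SE). Of the 10 sensory neuron markers, each was above background on all 9 arrays, 2 fell (Isl1 and Scn9a) and 8 did not pass the test. The arrays lie on 3 slides: uninjured 2, 3 and 4 on the first, uninjured 1 with injured 1, 2 and 5 on the second, and injured 3 and 4 on the third, so only the second slide holds both groups. On injured 2, a background fit over every spot was distorted by 20 spots with non-uniform local background, which were left out of the fit here.

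Against the 23.5% of all probes called, 5 of the 8 probes of the pathway passed: both probes of Gch1 rose, both probes of Pts and the probe of Pcbd1 fell, and those of Gchfr, Spr and Qdpr did not pass. Gch1 was the single gene of the 6 whose probes rose. The falls were small, and unlike the rise of Gch1 they were lost under several other ways of processing, as described for each gene.

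**Figure D1:**
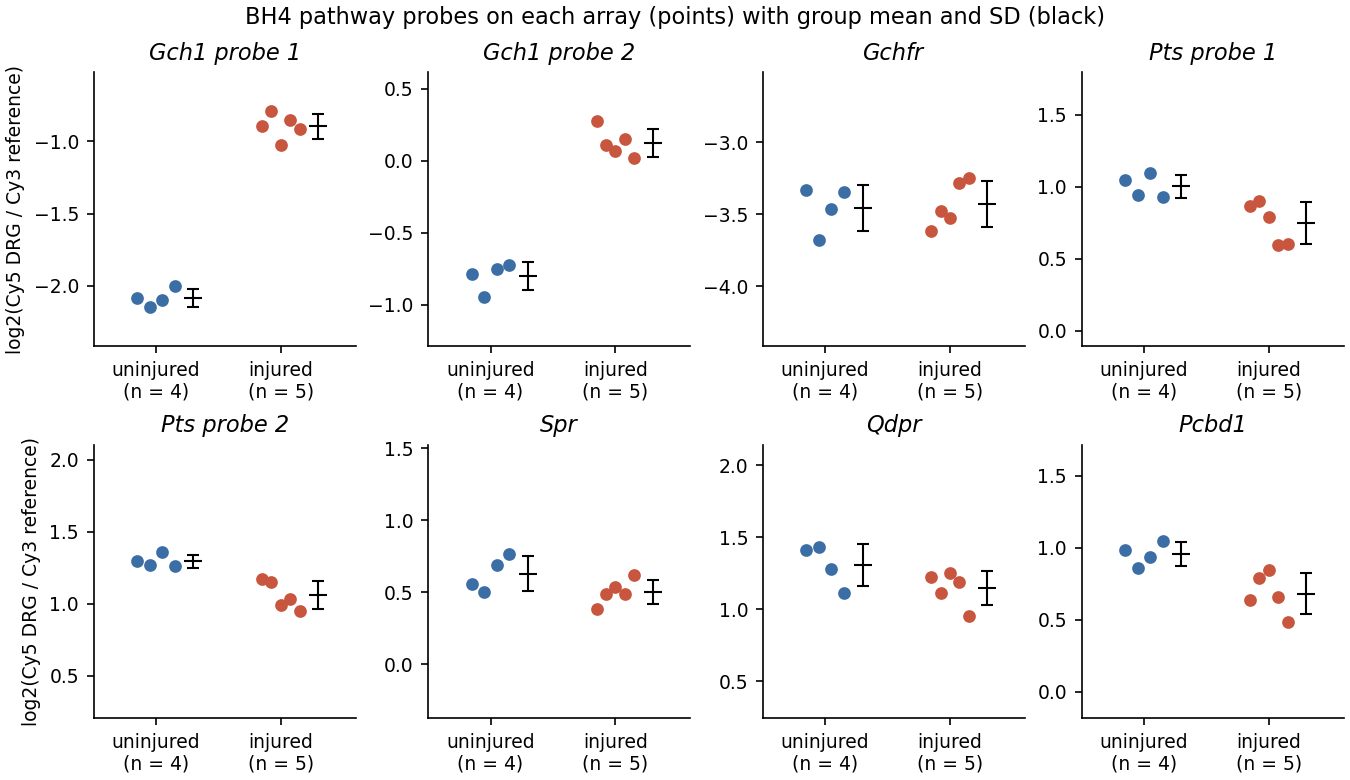
Log2 ratio of Cy5 (DRG) over Cy3 (reference) for each of the 8 probes, with 1 point per array (uninjured blue, n = 4; injured red, n = 5), and the group mean with its SD in black. Every panel spans the same range of log2 units, and the injured points lie clear above the uninjured ones only for the 2 Gch1 probes.

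Gch1 rose about 2-fold. The brighter of its probes, for the transcript with RefSeq identifier NM_008102, lies at chr14:42490332-42490391 on the minus strand (coordinates of all probes are those of the array's own annotation, build mm7). On this probe the log2 ratio was -2.09, -2.15, -2.10 and -2.001 on uninjured arrays 1 to 4. It was -0.89, -0.79, -1.03, -0.85 and -0.92 on injured arrays 1 to 5. Every injured array lay above every uninjured array, with a gap between the groups far wider than the range within either. The log2 fold change was 1.19 ± 0.06 (SE; adjusted p = 6.6e-07, limma), a 2.28-fold rise with a 95% interval of 2.07 to 2.52. An exact two-sided permutation test, over every split of the 9 arrays into 4 and 5, gave p = 0.0079, the smallest it can give. By size this was the 244th highest of the 31186 changes.

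The dimmer Gch1 probe, at chr14:42475231-42475290 on the minus strand, begins 15101 bases from the first and belongs to the same RefSeq transcript. Its log2 ratio was -0.79, -0.94, -0.75 and -0.72 on uninjured arrays 1 to 4 and 0.27, 0.11, 0.07, 0.15 and 0.02 on injured arrays 1 to 5. Again no injured array reached down to the uninjured range. Its log2 fold change was 0.93 ± 0.07 (SE; adjusted p = 9.3e-06, limma), or 1.90-fold with a 95% interval of 1.70 to 2.12, and the permutation p was again 0.0079. The change was larger on the brighter probe by 0.26 on the log2 scale (p = 0.016, exact permutation test of the same kind). Which stretch of the transcript each probe covers was not analysed here, since no mm7 annotation was used.

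The signals behind these ratios moved in the sample channel. The raw Cy5 signal of the brighter Gch1 probe was between 269.5 and 304.9 in uninjured samples and between 433.1 and 862.6 in injured ones. The reference signal of the same probe overlapped, at 686 to 883 on uninjured and 643 to 906 on injured arrays. On the dimmer probe Cy5 ran from 205.5 to 249.8 in uninjured and from 288.8 to 534.6 in injured samples, and the lowest injured signals on both probes came from injured 5, the array with the lowest median Cy5. Within the slide that holds both groups, the 3 injured arrays exceeded the uninjured array by 1.17 to 1.30 on the brighter probe and by 0.81 to 1.06 on the dimmer one, which compares 1 uninjured sample and has no test. Both probes passed the threshold under all alternatives run, with log2 fold changes from 1.12 to 1.45 and from 0.85 to 1.17. The average of the 2 probes gave 1.06 and passed too.

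Markers of cells other than neurons were also read, each on its brightest tested probe. Over all genes read in this way 11.2% rose and 13.6% fell. Of 10 macrophage markers, 2 rose (Aif1, 0.90 ± 0.20, and Itgam, 0.50 ± 0.15, log2 fold change and SE) and 8 did not pass. The median log2 fold change of the 10 was 0.61. Their mean, relative to the uninjured arrays, ran from -0.42 to 0.38 in uninjured and from 0.05 to 1.11 in injured samples, so the groups overlapped. The lowest injured array on this mean was injured 1, at 0.05 and inside the uninjured range, and its Gch1 level on the brighter probe was 1.19 above the uninjured mean. On injured 2, the highest at 1.11, Gch1 was 1.30 above it. Of 4 neutrophil markers Mpo rose and the others did not pass, with log2 fold changes from 0.98 to 1.82 over the 4. The neutrophil mean ran from -0.54 to 0.59 in uninjured and from 0.58 to 3.22 in injured samples. Of 5 T cell markers Lck rose, and their mean ran from -0.08 to 0.15 in uninjured and from 0.12 to 0.34 in injured samples. None of the 4 muscle markers passed, although their mean ran from -0.13 to 3.42 in injured samples and was highest on injured 4, where Gch1 was 1.23 above the uninjured mean. Of the other markers, 1 of 6 for satellite glia rose, and none of 6 for Schwann cells and myelin, 4 for endothelium or 2 tested for red blood cells passed. The part of these cells in the Gch1 result was not tested beyond these values.

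Gchfr, the feedback regulator of the cyclohydrolase, did not pass the test. Its probe (NM_177157, chr2:118913162-118913221, plus strand) read -3.33, -3.68, -3.46 and -3.35 on uninjured arrays 1 to 4 and -3.62, -3.48, -3.52, -3.28 and -3.25 on injured arrays 1 to 5. The groups overlapped over most of their range. The change was 0.03 ± 0.10 on the log2 scale (SE; adjusted p = 0.89, limma), with a 95% interval from 0.87-fold to 1.18-fold. Its Cy5 signal of 409.5 to 659.8 lay well below the reference signal of 3035 to 4251 on the same spot, so the level in ganglia was low against the reference.

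Pts encodes the enzyme that acts on the product of the cyclohydrolase, and its 2 probes lie 131 bases apart (NM_011220, minus strand, chr9:50500748-50500807 and chr9:50500617-50500676). The first read 1.05, 0.95, 1.10 and 0.93 on uninjured arrays 1 to 4 and 0.87, 0.90, 0.79, 0.60 and 0.60 on injured arrays 1 to 5. The second read 1.29, 1.27, 1.36 and 1.26 on the uninjured arrays and 1.17, 1.15, 0.99, 1.03 and 0.95 on the injured ones. On both probes every injured array was lower than every uninjured array, though on the first the highest injured and lowest uninjured values nearly met. The log2 fold changes were -0.25 ± 0.08 (adjusted p = 0.046, permutation p = 0.024) and -0.24 ± 0.06 (SE; limma adjusted p = 0.022, exact permutation p = 0.016). These are levels of 0.84 and 0.85 of the uninjured ones, and such non-overlap was found in 22.6% of all probes. The first probe lost its call when any of 7 arrays was left out, all but injured 1 and injured 2, with adjusted p-values from 0.063 to 0.13. The second lost it without injured 4 (0.051), uninjured 1 (0.055) or uninjured 3 (0.070).

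Spr catalyses the last step of synthesis. Its probe (NM_011467, chr6:85163174-85163233, minus strand) read 0.56, 0.50, 0.69 and 0.77 on uninjured arrays 1 to 4 and 0.39, 0.49, 0.54, 0.49 and 0.62 on injured arrays 1 to 5. The injured arrays were lower on average but the ranges overlapped, and injured 1, 2 and 4 were below the lowest uninjured array. Injured samples differed by a log2 fold change of -0.12 ± 0.07 (SE; adjusted p = 0.26, limma), with a 95% interval from 0.82-fold to 1.03-fold.

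Qdpr and Pcbd1 act in recycling. The Qdpr probe (NM_024236, chr5:44756709-44756768, minus strand) read 1.41, 1.43, 1.28 and 1.11 on uninjured arrays 1 to 4 and 1.23, 1.11, 1.25, 1.19 and 0.96 on injured arrays 1 to 5. Uninjured 4 lay among the injured arrays. The log2 fold change was -0.16 ± 0.09 (SE; adjusted p = 0.21, limma), with a 95% interval from 0.78-fold to 1.02-fold. The Pcbd1 probe (NM_025273, chr10:60611741-60611800, plus strand) read 0.99, 0.86, 0.94 and 1.05 on the uninjured and 0.64, 0.79, 0.85, 0.66 and 0.49 on the injured arrays. Every injured array was lower, but injured 3 and uninjured 2 nearly met. The log2 fold change of Pcbd1 was -0.28 ± 0.08 (SE; adjusted p = 0.030, limma; exact permutation p = 0.016), a level of 0.83 of the uninjured one. Pcbd1, which also encodes a cofactor of the transcription factor HNF1, lost its call without injured 1 (0.056), injured 4 (0.066), uninjured 1 (0.080), uninjured 3 (0.064) or uninjured 4 (0.085), the values being adjusted p-values.

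Within the second slide alone, the 3 injured arrays differed from its 1 uninjured array on average by -0.25 and -0.20 for Pts, -0.35 for Pcbd1, -0.31 for Qdpr, -0.06 for Spr and -0.12 for Gchfr (log2 units, no test). For Pts, Pcbd1 and Qdpr each of the 3 injured arrays was lower than the uninjured one, and for Spr and Gchfr they lay on both sides of it. With slide as a fixed block the falls of Pts and Pcbd1 did not pass (adjusted p = 0.40 for each Pts probe and 0.23 for Pcbd1, limma), and the 2 Gch1 probes did (0.0015 and 0.0089).

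**Figure D2:**
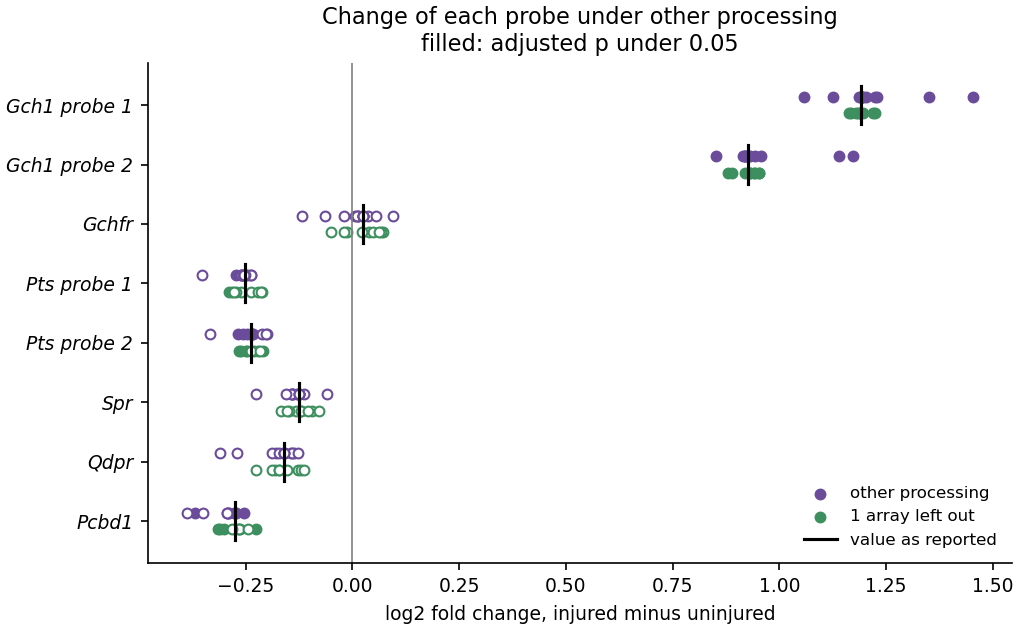
Log2 fold change of each probe (horizontal axis) as reported (black line), under other processing (purple) and with 1 array left out (green), filled where adjusted p was under 0.05. The Gch1 probes stay at 0.85 or above and filled throughout, the Pts and Pcbd1 probes stay below 0 with filled and open points, and Gchfr lies on both sides of 0.

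Whether Gch1 changed unequally to the other 5 genes was tested on each array as the difference of log2 ratios between the brightest Gch1 probe and the brightest probe of the other gene, which cancels any shift common to an array. The difference Gch1 minus Gchfr rose from 1.37 ± 0.12 in uninjured to 2.53 ± 0.17 in injured samples (mean ± SD, n = 4 and 5; exact permutation test), by 1.16. Against Pts it rose by 1.44, against Spr by 1.31, against Qdpr by 1.35 and against Pcbd1 by 1.47 log2 units. For all 5 pairs the injured and uninjured arrays did not overlap, and the exact permutation p was 0.0079 before and after adjustment over the 5 comparisons, the smallest the design allows. Leaving out each array in turn, median centring and a background fit over every spot kept the increases between 1.11 and 1.54. The 5 comparisons share the Gch1 values and are not independent of each other. The Gch1 probe rose by 1.19 while the probes of the other 5 genes changed by -0.28 to 0.03, so these tests largely restate the rise of Gch1.

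Around these 6 genes stand enzymes that make BH4 by other routes, enzymes that use it, and the supply of its precursor. Each such gene was read on its brightest tested probe, and over all 20898 genes read in this way 11.2% rose and 13.6% fell, with a median log2 fold change of 0.00. Of the 34 genes on 5 lists, 32 passed the filter on dim probes, 4 rose, 3 fell and 25 did not pass the test, a called share no higher than the 24.9% of all genes, and their median log2 fold change was 0.01.

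**Figure D3:**
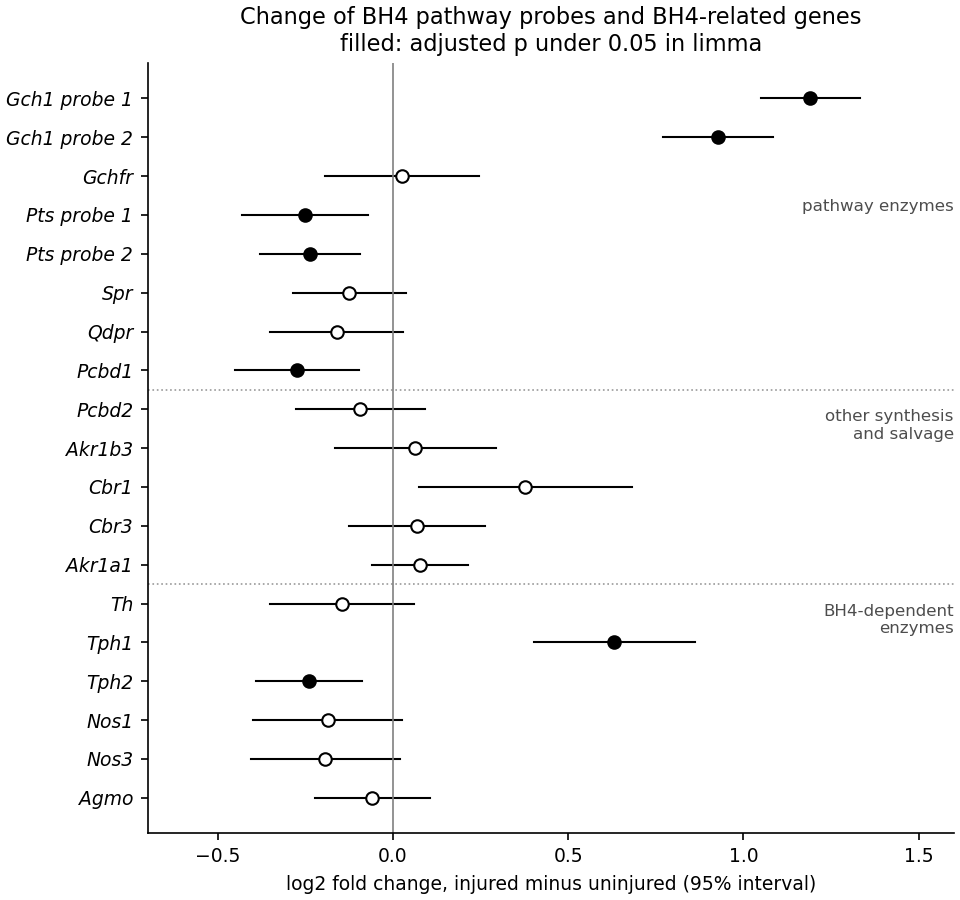
Log2 fold change (injured minus uninjured) with its 95% interval from limma for the 8 pathway probes, 5 other genes of synthesis and salvage and 6 enzymes that depend on BH4, filled where adjusted p was under 0.05. Gch1 stands to the right at 1.19 and 0.93, followed by Tph1 at 0.63, and the other points lie between -0.28 and 0.38.

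None of the 5 other genes of synthesis and salvage passed the test. Carbonyl reductase Cbr1, of the salvage route, had a log2 fold change of 0.38 ± 0.14 and did not pass (adjusted p = 0.072, limma), with injured 2 at 2.15 against 1.43 to 1.48 on the other 4 injured arrays and 1.14 to 1.24 on the uninjured ones. Without injured 2 the change was smaller, 0.24, and passed (adjusted p = 0.017). With all arrays it passed with slide as a random block (0.40, limma adjusted p = 0.021) and with array weights (0.42, adjusted p = 0.038). The remaining reductases Cbr3 (0.07 ± 0.09), Akr1b3 (0.06 ± 0.10) and Akr1a1 (0.08 ± 0.06) and the Pcbd1 paralogue Pcbd2 (-0.09 ± 0.08) did not pass, the values being log2 fold changes and SE.

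Of 7 enzymes that depend on BH4, 6 were tested, Tph1 rose, Tph2 fell and 4 did not pass. Tph1, one of the pair of tryptophan hydroxylases that start serotonin synthesis, read 0.80, 0.76, 0.69 and 0.55 on uninjured arrays 1 to 4 and 1.46, 1.21, 1.03, 1.49 and 1.47 on injured arrays 1 to 5. All injured arrays were higher. Its log2 fold change was 0.63 ± 0.10 (SE; adjusted p = 0.0015, limma), a rise of 1.55-fold. The call was lost with every spot in the background fit (0.52, adjusted p = 0.052) and with slide as a fixed block (0.58, adjusted p = 0.13). Tph2, its neuronal paralogue, had a log2 fold change of -0.24 ± 0.07 (adjusted p = 0.028), and its groups did not overlap, at 0.37 to 0.50 in uninjured and 0.09 to 0.33 in injured samples. That call was lost without any of injured 2, injured 3, injured 4, uninjured 1, uninjured 2 and uninjured 3, at -0.21 to -0.26 with adjusted p-values from 0.050 to 0.083, and its size moved with the background correction, from -0.09 with none (adjusted p = 0.38) to -0.65 with an offset of 0 (adjusted p = 0.017). It was also lost with Agilent's own ratio (-0.16, adjusted p = 0.70), median centring (-0.28, adjusted p = 0.094), Cy5 alone (-0.25, adjusted p = 0.090) and slide as a fixed block (-0.12, adjusted p = 0.61). The raw Cy5 signals of Tph2 were low and overlapped, at 97.6 to 114.1 in uninjured and 78.2 to 112.9 in injured samples.

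Tyrosine hydroxylase (Th), which starts catecholamine synthesis, had a log2 fold change of -0.15 ± 0.09 (adjusted p = 0.30, limma). Its ratio to the reference was 3.23 to 3.59 in uninjured and 3.17 to 3.47 in injured samples, so that the groups overlapped. The neuronal nitric oxide synthase Nos1 (-0.19 ± 0.10, on a probe the array names 2310005C01Rik, and -0.19 on the probe named Nos1), the endothelial Nos3 (-0.19 ± 0.10) and the ether lipid-cleaving enzyme Agmo (-0.06 ± 0.07) did not pass either. Nos3 passed when injured 5 was left out (-0.27, adjusted p = 0.019). The probe of the inducible synthase Nos2 was not well above background on any array, so it was not tested.

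Of the 7 genes that supply GTP, the substrate of Gch1, Nme2 and Impdh2 rose and 5 did not pass. Nme2, a nucleoside diphosphate kinase, read -1.46, -1.63, -1.42 and -1.33 on uninjured arrays 1 to 4 and -1.13, -0.82, -0.995, -0.82 and -0.86 on injured arrays 1 to 5. The injured arrays were all higher, and the log2 fold change was 0.54 ± 0.09 (SE; adjusted p = 0.0013, limma). Impdh2, inosine monophosphate dehydrogenase of the guanine nucleotide pathway, had a log2 fold change of 0.41 ± 0.09 (adjusted p = 0.0091) and 0.35 on its other probe. Both calls were lost with median centring (Nme2 0.37, adjusted p = 0.053; Impdh2 0.31, adjusted p = 0.12) and with slide as a fixed block (0.52, adjusted p = 0.12, and 0.46, adjusted p = 0.17). The Impdh2 paralogue Impdh1 had the lowest value of the list, -0.20 ± 0.08, and did not pass (adjusted p = 0.10), although it did without injured 5 (-0.27, adjusted p = 0.0068).

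Of the 9 genes for the handling of monoamines, the products of BH4-dependent hydroxylation, 8 were tested, Slc6a4 rose, Ddc fell and 6 did not pass. Slc6a4 encodes the serotonin transporter, and of all genes on the 5 lists it changed most. Its log2 ratio was 0.08, 0.25 and 0.22 on uninjured arrays 1 to 3, while the value of uninjured 4 was left out as a flagged outlier spot, and 3.05, 3.13, 2.70, 3.20 and 2.36 on injured arrays 1 to 5. The log2 fold change was 2.71 ± 0.18 (SE; n = 3 and 5; adjusted p = 6.6e-06, limma). The uninjured spots were close to background, with raw Cy5 signals of 71.5 to 90.4 against 380.9 to 934.9 in injured samples, and on uninjured 2 the spot was not well above background. The size of this change therefore moved with the background correction, from 2.49 with every spot in the background fit to 4.76 with Agilent's own ratio, and it passed under each alternative that gave it a value. Ddc, the decarboxylase that completes dopamine and serotonin synthesis, had a log2 fold change of -0.27 ± 0.08 (adjusted p = 0.030) with 1 injured array at the uninjured level, and its other tested probe gave -0.12 and did not pass (adjusted p = 0.28). The brighter probe lost its call with every spot in the background fit (-0.21, adjusted p = 0.20), with median centring (-0.33, adjusted p = 0.16), under slide as a fixed block (-0.15, adjusted p = 0.62), and without any of injured 3, 4 or 5 or uninjured 2, 3 or 4 (-0.24 to -0.27, adjusted p-values from 0.050 to 0.088).

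Of the 6 partners of nitric oxide signalling, Prkg1 fell and 5 did not pass. Prkg1, the cGMP-dependent protein kinase downstream of nitric oxide, read 3.83, 3.57, 3.78 and 3.997 on uninjured arrays 1 to 4 and 3.25, 3.15, 3.33, 3.13 and 2.83 on injured arrays 1 to 5. No injured array reached the uninjured range, and the log2 fold change was -0.66 ± 0.11 (SE; adjusted p = 0.0017, limma), with -0.64 and -0.29 on its other tested probes. With slide as a fixed block it was -0.75 and did not pass (adjusted p = 0.076). Ddah1, which degrades an endogenous inhibitor of nitric oxide synthases, had the highest value of the list and did not pass (0.16 ± 0.09, adjusted p = 0.24), while its dimmer probe gave 0.32 (adjusted p = 0.0053).

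**Figure D4:**
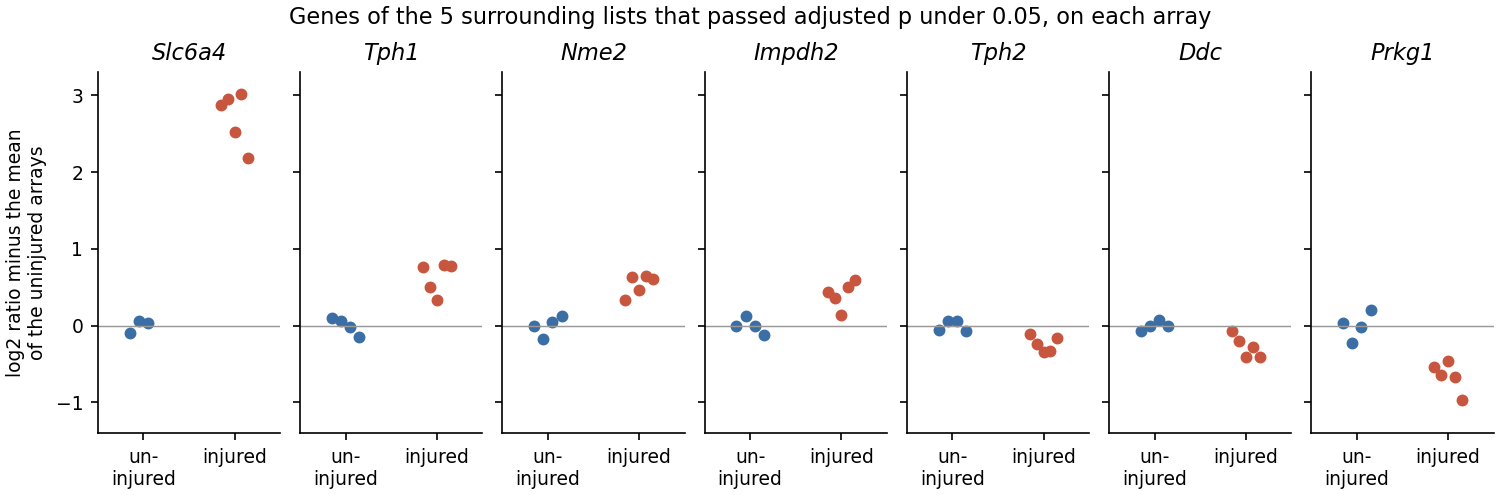
The 7 genes of the surrounding lists that passed the test, each array as 1 point, on the vertical axis as log2 ratio minus the mean of the uninjured arrays (uninjured blue, injured red). Slc6a4, Tph1, Nme2 and Impdh2 lie above 0 in injured samples and Tph2, Ddc and Prkg1 below it, with Slc6a4 far above the rest and 1 uninjured point missing.

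Profiles over the 9 arrays were compared for 16461 other tested genes with a current symbol and a value on every array. Genes with a missing value could not be picked. The 5 closest to the brighter Gch1 probe were Tnip2, Clic1, Emp3, Fads3 and Plekho1. Likeness was the root mean square difference of the log2 ratios, each taken relative to its own uninjured mean, and it was 0.03 for Tnip2 and 0.07 to 0.08 for the other 4. The second Gch1 probe differed from the first by 0.21 on the same measure. Their log2 fold changes were 1.19 to 1.26. These genes were picked for this likeness, so it carries no test.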

How the data were processed

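The arrays are Agilent two-colour arrays, and the scanner intensities (spot mean and local background median of each channel) were used as deposited. Feature Extraction 10.5.1.1, per the file headers, also made log10 ratios, and the authors deposited their own log2 ratios (Cy5 over Cy3, made with limma after background correction and within-array normalization); both served as alternatives. Fluorescence has no count depth, so the number of arrays limits precision.

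In R 4.3.3 with limma 3.58.1, background was corrected by normexp (offset 50, without spots of non-uniform background), arrays were normalized by loess with control spots at weight 0, outlier spots were set missing and repeated spots averaged. Probes with Cy5 well above background on at least 4 arrays (31186 of 41174) were tested with limma's moderated test and adjusted by the Benjamini-Hochberg method over all of them. On simulated normal log2 ratios with 200 probes changed, the limma step alone recovered 97% of changes of 1 and 62% of changes of 0.5 (log2). Background correction, normalization and slides were not simulated, and more probes were called in the data. Probes were named by accession (22951), symbol (6659) or older name (3109), and 8455 kept the array's name.

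The genes and lists were chosen with earlier results of these data known, and some list genes are not reported here. Named are all probes of the 6 genes, all tested genes of the first 2 lists, and from the others those called and the largest rise and fall. Alternatives varied background, normalization, filter, slide, weights and probes, and left out each array; keeping outlier spots was added after seeing the data. Figures used Python 3.11.15 and matplotlib 3.10.9. The study's other experiments were not analysed here.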

Additional observations from a re-analysis of the deposited data

Results flagged for a closer look

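Single arrays stood apart from the rest of their group, by the size of the gap to the nearest array, in 5 of the 81 groups of values examined, where chance gives about 1 in 20; none of the 5 concerned a probe of the 6 pathway genes. Cbr1 was higher on injured 2 (log2 ratio 2.15, the nearest injured array at 1.48) and lower on uninjured 3 (1.14, the nearest at 1.23). Agmo was lower on injured 3 (1.31, the nearest at 1.44), and Impdh1 higher on injured 5 (1.61, the nearest at 1.29). The mean of the injury genes was higher on injured 2 (3.35 above the uninjured mean, the nearest at 3.14).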

How the results depend on the processing

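Of the results for the 8 probes, those of Gch1, Spr and Qdpr kept their direction and their side of the threshold under every alternative run. The 5 differences between Gch1 and the other genes did so under the 11 alternatives run for them. Those were each array left out, median centring and every spot in the background fit. Median centring left 3519 of all probes, 2 of the 8 and 3 list genes called, and moved Gchfr to -0.063, Pts to -0.35 and -0.33 and Pcbd1 to -0.39, none of them called. Slide as a fixed block, which rests on the slide with both groups, left 1507 probes, 2 of the 8 and 1 list gene called, with Gchfr at -0.12, Pts at -0.25 and -0.20 and Pcbd1 at -0.35. Calls were also lost for the first Pts probe with an offset of 0 (-0.26), Agilent's own ratio (-0.26), the authors' values (-0.26), Cy5 alone (-0.24) and no filter (-0.25), for the second with Cy5 alone (-0.21) and for Pcbd1 with Agilent's own ratio (-0.29). Agilent's own ratio and Cy5 alone each left 3 of the 8 called, and array weights turned Gchfr to -0.020 and called 11 list genes in place of 7. The cause was not tested. Leaving out each array in turn gave -0.29 to -0.21 and -0.27 to -0.21 for Pts, -0.32 to -0.23 for Pcbd1, -0.050 to 0.072 for Gchfr and 2 to 5 of the 8 called. Without injured 4, uninjured 1 or uninjured 3, the 2 Gch1 probes were the ones called.

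Changes that were not called changed sign under median centring (Akr1b3 -0.054, Cbr3 -0.027, Akr1a1 -0.065), slide as a fixed block (Akr1b3 -0.012, Nos1 0.047, Agmo 0.079, Ddah1 -0.10), Cy5 alone (Akr1a1 -0.049) and without 1 array (Akr1b3 -0.022 to 0.13). No paired analysis was possible because no label numbers the samples or ties an injured one to an uninjured one.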

Other observations

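The 8 letters TGACGCAA at the TGACG match of the Gch1 promoter were also present in the RefSeq promoter window of Slc6a4, where TGACG begins 101 bases before the start (chr11:76998347-76998646, plus strand, GRCm38.p6). Of the 32851 promoters, 161 hold these letters on either strand (0.490%). The search was made after both sequences and both changes had been seen, and it measures no binding. The promoter windows of Tph1, which also rose, were searched too and hold TGACG but not the 8 letters. Those of Nme2 and Impdh2, which rose as well, and of the list genes that fell were not read individually.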
